A study of Rattus norvegicus with 2 samples.

Results

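Histone genes were followed in RNA of primary heart muscle cells from neonatal SD rats, 24 h after lipopolysaccharide (LPS). They were taken by name, as genes with a transcript cluster of a single symbol that starts with Hist1, Hist2, Hist3, Hist4, H1f, H2af or H3f in the platform table. Of 22093 genes on the array, 29 met this rule: 16 with Hist names, 7 with H1f names, 6 with H3f names and 0 with H2af names. In the treated cultures LPS, a component of bacterial outer membranes, was given at 100 ng/mL after several days in culture. The control cultures received vehicle and were also harvested at 24 h, and nothing else in the labels separates the groups. Each group was hybridised to 1 array, and the sources used here do not say whether its RNA was pooled from several cultures. No spread between samples could therefore be estimated, and every difference below is a size without a test that describes these 2 arrays.

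Histones are the proteins that package DNA. Pairs of H2A, H2B, H3 and H4 form the core of the nucleosome, and H1 binds the linker DNA between nucleosomes. Replication-dependent histone genes lie in clusters, lack introns and are transcribed in S phase, when new DNA has to be packaged. Their mRNAs end in a stem-loop instead of a poly(A) tail. Replacement variants such as H3.3 are made throughout the cell cycle from ordinary polyadenylated mRNAs, and they are the main new histones of cells that have stopped dividing. Rat heart muscle cells leave the cell cycle in the first days after birth, while non-muscle cells of such cultures can go on dividing. Per the labels, RNA was amplified with the GeneChip WT PLUS kit, which primes along the whole transcript, so that mRNAs without a poly(A) tail can be labelled too.

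The deposited values are linear intensities with no known absolute unit. Of all 68842 clusters, 67.2% had exactly the same value on both arrays, some at high levels, such as the cardiomyocyte marker Myh7 at 129437. Why this is so was not tested, so identical values below are not taken as a measured lack of change. A gene was compared when the higher of its values reached 49.3, the median over all clusters of the mean of both arrays, called the floor here. The floor was reached by 14420 genes and by 24 of the 29 histone genes, 15 with Hist names and 9 with other names. The 5 histone genes under the floor were Hist1h2bd, H1f6, H1f7, H1f8 and H3f3al1, with intensities between 22.9 and 42.5 on both arrays. Of these, H1f6, H1f7 and H1f8 encode linker histones of germ cells. The labelled cell type was checked first: all 9 cardiomyocyte markers with a row of their own were above the floor on both arrays, with Tnnt2, cardiac troponin T, at 87940 with LPS and 84362 with vehicle. Of the 9, 2 were lower, 3 higher and 4 identical, and none differed by 2-fold. Their summed intensity was 909082 with LPS and 901367 with vehicle, or 563689 with LPS and 596346 with vehicle without Nppa.

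Replication-dependent histone genes were mostly lower on the LPS array, while genes with H3f names had identical or nearly equal values on both arrays. Of the 15 Hist genes above the floor, 10 were lower with LPS, 1 was higher and 4 had identical values, with a median log2 difference (LPS minus vehicle) of -0.50. That median is the value of Hist1h2bg, which reached the floor only on the vehicle array, at 39.6 with LPS against 55.9 with vehicle. Without a floor, the median over all 16 Hist genes was -0.45. At least 2-fold lower were 6 of the 15, in a comparison where 2.63% of all 14420 genes were, and none was at least 2-fold higher, where 3.69% of all genes were. At 1.5-fold, 7 of the 15 were lower, against 5.67% of all genes. Lower values of any size were found for 31.7% of all genes, higher values for 22.4% and identical values for 45.9%, and the median of all genes was 0. For the 9 genes with H1f and H3f names the median was 0, since 4 had lower values with LPS, 4 higher and 1 identical. In these bulk samples, fewer dividing cells and less histone mRNA per cell cannot be told apart.

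**Figure D1:**
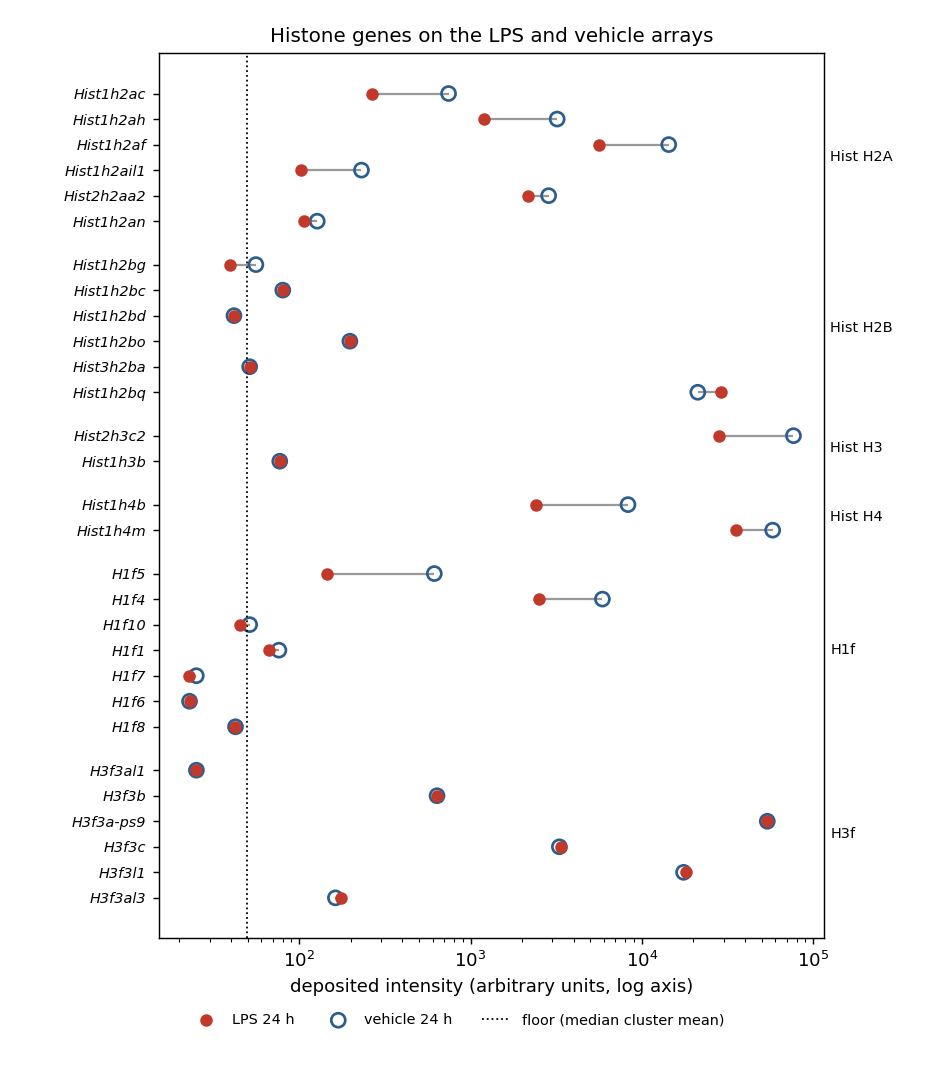
Deposited intensity (log axis) of all 29 histone genes on the LPS 24 h array (filled red points) and the vehicle 24 h array (open blue circles), grouped by name, with the floor of 49.3 as a dotted line. All 6 Hist H2A genes lie lower with LPS, most Hist H2B and H3f points coincide, and Hist1h2bq is the Hist gene with the higher value on the LPS array.

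The 6 H2A genes were all lower on the LPS array, and 4 of them by at least 2-fold. Among all genes above the floor, 31.7% were lower and 2.63% at least 2-fold lower. Hist1h2ac (Entrez 306962) had an intensity of 268 with LPS against 744 with vehicle, 2.78-fold lower. Hist1h2ah (Entrez 502125) stood at 1205 with LPS against 3203 with vehicle, 2.66-fold lower, and its second cluster was 2.46-fold lower, at 413 with LPS against 1018 with vehicle. For Hist1h2af (Entrez 498753) the values were 5639 with LPS and 14342 with vehicle, a 2.54-fold lower level. These genes encode canonical H2A, which pairs with H2B in the nucleosome core. Hist1h2ail1, an H2A gene by its symbol, was 2.24-fold lower at 103 with LPS against 231 with vehicle, values between the floor and the 75th percentile of cluster means, 236. The smaller differences were those of Hist2h2aa2, 1.31-fold lower at 2178 with LPS against 2857 with vehicle, and Hist1h2an, 1.20-fold lower at 107 with LPS against 127 with vehicle. The median over the 6 genes was -1.26.

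None of the H2B genes was 2-fold lower, where 2.63% of all genes above the floor were. Hist1h2bq (Entrez 306945) was the Hist gene with a higher value on the LPS array, at 29111 with LPS against 21189 with vehicle, 1.37-fold higher. A second cluster with its symbol had identical values of 71.7. The other H2B genes were measured at low intensities. Hist1h2bo had identical values of 198, Hist1h2bc of 80.2 and Hist3h2ba of 51.4, while Hist1h2bg was 1.41-fold lower, at 39.6 with LPS against 55.9 with vehicle. The median of the 5 H2B genes above the floor was 0. Hist1h2bq was thus the only H2B gene of this set above 236, where the 4 H2A genes of that level were all lower. Whether the 2 families differ was not tested.

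For H3 and H4, whose pairs form the centre of the nucleosome, 1 gene each was at least 2-fold lower. Such a difference was found for 2.63% of all genes above the floor. Hist2h3c2 (Entrez 310678), an H3 gene, stood at 28280 with LPS against 76638 with vehicle, 2.71-fold lower. Hist1h3b, the other H3 gene, had identical values of 77.0. Hist1h4m (Entrez 291152), an H4 gene, was 1.63-fold lower at 35495 with LPS against 57954 with vehicle, and its second cluster agreed within 0.1 log2, at 22417 with LPS against 37598 with vehicle, 1.68-fold lower. Hist1h4b, also H4, was 3.43-fold lower, at 2419 with LPS against 8294 with vehicle. That value rests on a cluster without an Entrez ID. RefSeq lists Hist1h4b as another symbol of Hist1h4m, so these may not be separate H4 genes. A second Hist1h4b cluster, which has an Entrez ID, was 1.01-fold lower, at 2361 with LPS against 2388 with vehicle, and another had identical values of 104. With the second cluster in use, 5 of the 15 Hist genes were at least 2-fold lower and the median was -0.39.

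**Figure D2:**
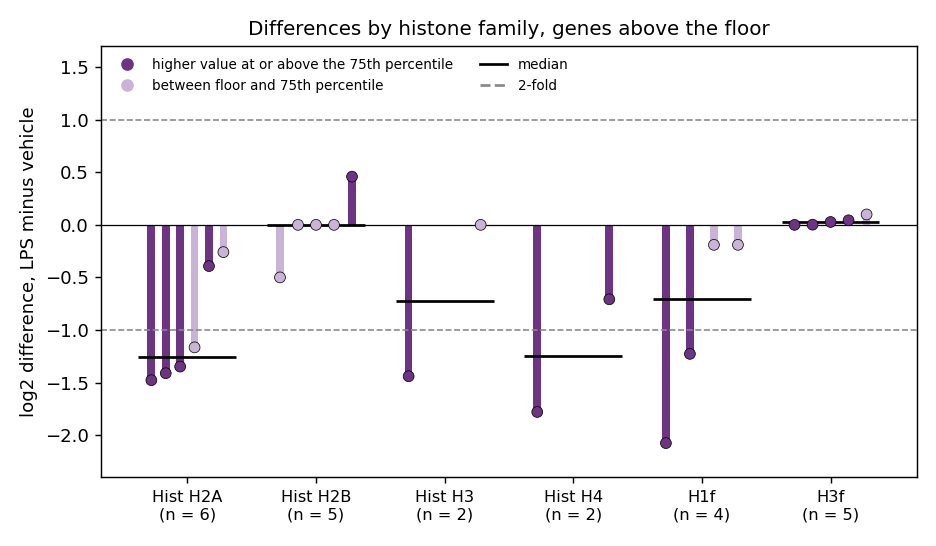
Log2 difference (LPS minus vehicle) of the 24 histone genes above the floor by name group, with bars and points for genes, horizontal lines for group medians and dashed lines at 2-fold; dark points are genes whose higher value reached 236. H2A, H3, H4 and H1f hold all 8 genes at least 2-fold lower, and the 5 H3f genes lie between 0 and 0.10.

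The names split the linker histones across the contrast. H1f1, H1f4 and H1f5 carry H1f symbols here but are replication-dependent H1 genes, listed in RefSeq with the older symbols Hist1h1a, Hist1h1e and Hist1h1b. H1f5 (Entrez 680522) showed the largest difference of all 29 genes, at 146 with LPS against 615 with vehicle, 4.21-fold lower. H1f4 (Entrez 201097) was 2.34-fold lower, at 2515 with LPS against 5882 with vehicle. These were the 2 of 9 H1f and H3f genes at least 2-fold lower. H1f1 was 1.14-fold lower, at 66.8 with LPS and 76.2 with vehicle, close to the floor. H1f10, the replacement linker histone H1x, was likewise close to it, at 45.1 with LPS and 51.4 with vehicle. With H1f1, H1f4 and H1f5 counted among the replication-dependent genes, 8 of 18 were at least 2-fold lower with a median of -0.60. The share among all genes above the floor was 2.63%. The 6 remaining variants then had none at least 2-fold lower and a median of 0.01.

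Beside H1f10, the remaining variants above the floor were genes with H3f names. No member carries the symbol H3f3a itself. H3f3b (Entrez 117056), which encodes H3.3, had identical values of 637 on both arrays. H3f3l1 was at 18036 with LPS and 17504 with vehicle, and H3f3c at 3362 with LPS and 3299 with vehicle. H3f3a-ps9 differed least of the non-identical members, at 53979 with LPS against 53911 with vehicle. H3f3al3 was 1.07-fold higher, at 174 with LPS against 163 with vehicle. RefSeq lists H3f3c and H3f3a-ps9 as pseudogenes, and all these symbols mark copies of H3.3 genes, and the core histone genes are near-identical within a family too. How far clusters share the transcripts of such copies was not tested, so values of single copies are uncertain. The median of the 5 H3f genes was 0.03. After a smooth trend of difference on level was removed, H3f3b and H3f3c were slightly lower, by 0.02 and 0.03 on the log2 scale.

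Values at a low level were often identical between the arrays, so the comparison was repeated for genes whose higher value reached 236. Of the 8 Hist genes at that level, 7 were lower and 1 was higher, with 5 at least 2-fold lower and a median of -1.38. Among all 9371 genes of that level, 39.4% were lower, 3.65% at least 2-fold lower and 33.1% identical. Of the 6 H1f and H3f genes there, 2 had lower, 3 higher and 1 identical values, and the median was 0.00091. One of the lower genes, H1f5, reached 236 only on the vehicle array, at 146 with LPS against 615 with vehicle. The 4 Hist genes with identical values, Hist1h2bc, Hist1h2bo, Hist3h2ba and Hist1h3b, all lay under 236.

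**Figure D3:**
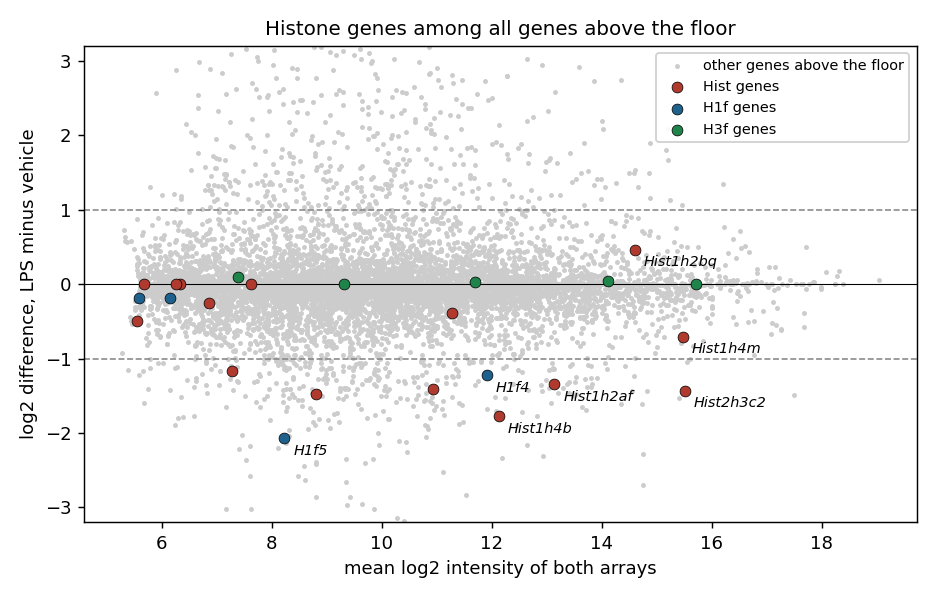
Log2 difference (LPS minus vehicle) against the mean log2 intensity of both arrays for genes above the floor, with Hist genes in red, H1f in blue, H3f in green and other genes in grey; dashed lines mark 2-fold, and 112 genes beyond 3.2 in either direction lie outside the axis. The lower Hist and H1f genes spread over the range of levels, and the H3f genes stay near the 0 line.

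Promoter sequences are shown for members that differed in direction, to set the promoter letters beside it. They are the 250 bases before the gene start in RefSeq, build GRCr8, read on the gene's strand. The sources used here do not name the build behind the array's clusters. Capitals mark the CCAAT box bound by NF-Y, the TATAAA site of the TATA-binding protein and the octamer ATTTGCAT bound by Oct-1. Each was searched on both strands, and 0 of the marked sites overlap. Hist1h2af (chr17:41807654-41807903, minus strand), Hist2h3c2 (chr2:186525912-186526161, plus strand) and H1f5 (chr17:47421625-47421874, plus strand) were at least 2-fold lower on the LPS array. Hist1h2bq (chr17:41869342-41869591, minus strand) was higher there, and H3f3b (chr10:101757637-101757886, minus strand) was identical.
Hist1h2af: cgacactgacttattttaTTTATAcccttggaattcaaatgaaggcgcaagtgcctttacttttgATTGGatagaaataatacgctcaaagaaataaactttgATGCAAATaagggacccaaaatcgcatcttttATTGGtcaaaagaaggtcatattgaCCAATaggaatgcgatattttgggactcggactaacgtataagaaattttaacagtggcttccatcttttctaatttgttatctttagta
Hist2h3c2: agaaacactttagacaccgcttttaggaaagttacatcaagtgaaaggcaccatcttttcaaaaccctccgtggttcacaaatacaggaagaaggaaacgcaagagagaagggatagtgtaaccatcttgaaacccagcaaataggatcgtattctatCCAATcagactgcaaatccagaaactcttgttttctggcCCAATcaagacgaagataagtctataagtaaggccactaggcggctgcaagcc
H1f5: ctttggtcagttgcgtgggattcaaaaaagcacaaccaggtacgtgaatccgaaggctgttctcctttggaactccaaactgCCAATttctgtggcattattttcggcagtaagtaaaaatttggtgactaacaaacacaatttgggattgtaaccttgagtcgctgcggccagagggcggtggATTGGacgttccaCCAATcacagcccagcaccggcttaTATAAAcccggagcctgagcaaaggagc
Hist1h2bq: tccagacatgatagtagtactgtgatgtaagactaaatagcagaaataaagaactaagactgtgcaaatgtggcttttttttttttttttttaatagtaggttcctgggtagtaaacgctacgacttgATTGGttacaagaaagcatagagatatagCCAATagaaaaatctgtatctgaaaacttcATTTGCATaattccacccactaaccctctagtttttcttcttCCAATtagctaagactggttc
H3f3b: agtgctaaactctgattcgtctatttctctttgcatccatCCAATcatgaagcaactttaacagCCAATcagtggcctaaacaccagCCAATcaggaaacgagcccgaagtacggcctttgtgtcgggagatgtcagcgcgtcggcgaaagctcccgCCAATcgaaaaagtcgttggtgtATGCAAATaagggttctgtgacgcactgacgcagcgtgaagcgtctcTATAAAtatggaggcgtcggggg

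CCAAT was found in the windows of 12 of the 13 Hist genes with a RefSeq promoter, against 34.0% of all 33469 windows of this length. TATAAA was in 6 of the 13, against 12.9% of all, and the octamer in 5 of 13, against 1.56%. Among H1f genes, CCAAT was in 5 of 7 windows, TATAAA in 3 and the octamer in 0. Of the 3 H3f genes with a promoter, 2 held CCAAT, 1 TATAAA and 1 the octamer. None of the 3 motifs is thus particular to Hist genes. The window of Hist1h2bq, higher with LPS, held 3 CCAAT, 0 TATAAA and 1 octamer, and that of Hist1h2af, lower with LPS, held 3 CCAAT, 1 TATAAA and 1 octamer. The TATAAA of Hist1h2af reads on the other strand, at the end of the window farthest from the gene start. There LOC102549061 starts on the opposite strand, 260 bases from the start of Hist1h2af. Which gene a marked site serves was not tested. H3f3b held 4 CCAAT, 1 TATAAA and 1 octamer. Hist1h4m, 1.63-fold lower with LPS, held none of the 3 motifs. Many histone genes start head to head, an H2A beside an H2B on the other strand, so their windows can overlap. In RefSeq, 11 head-to-head neighbours with starts 163 to 264 bases apart involve the histone genes measured here. In only 1 were both genes among those found by current or older symbols, and other partners were not looked up on the array. In that pair H2ac1 was 2.19-fold lower, at 327 with LPS against 716 with vehicle, and H2bc1 had identical values of 67.7. Both encode testis forms of their histones.

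Because the platform table uses current symbols for part of the family, the name rule left out 16 histone genes whose older RefSeq symbol carries the same prefixes. They were added after the data had been seen. Of the 10 with older Hist symbols, 8 were above the floor, and of these 5 had lower values with LPS and 3 identical ones. Their median was -0.68. H2ac4, formerly Hist1h2ak, was 3.71-fold lower, at 917 with LPS against 3400 with vehicle, and H2ac21, another H2A gene, 1.78-fold lower at 916 with LPS against 1629 with vehicle. H2ac18, also H2A, had identical values of 1642. Together with the 15 Hist genes of the rule, 8 of 23 were at least 2-fold lower, against 2.63% of all genes above the floor. With H1f1, H1f4 and H1f5 moved in as well, by their older symbols, it was 10 of 26.

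H2A variants, absent from the rule's finds, were among these added genes, and 5 of the 6 were lower with LPS. Lower values of any size were found for 31.7% of all genes above the floor. Macroh2a2, which encodes a macroH2A found in silenced chromatin, was 2.62-fold lower, at 997 with LPS against 2610 with vehicle. H2ax, the H2A form that is phosphorylated at DNA breaks, was 2.18-fold lower, at 5973 with LPS against 13041 with vehicle. H2az1, which encodes H2A.Z of promoter nucleosomes, was 1.28-fold lower, at 1912 with LPS against 2454 with vehicle. H2aj was 1.33-fold lower, at 221 with LPS against 293 with vehicle, and Macroh2a1 1.03-fold lower, at 1024 with LPS against 1054 with vehicle. H2ab3 had identical values of 56.0. The median was -0.38 over these 6 H2A variants and 0.03 over the 5 H3f genes, a contrast that was not tested.

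Genes of DNA replication were lower alongside the histones. All 17 with a row of their own were lower with LPS, 7 of them at least 2-fold, with a median of -0.91. Of all 14420 genes above the floor, 31.7% were lower and 2.63% at least 2-fold lower. Prim1, the primase subunit that starts new DNA strands, was 2.48-fold lower, at 2187 with LPS against 5417 with vehicle. Cdc6, a licensing factor of replication origins, was 3.13-fold lower, at 124 with LPS against 388 with vehicle. Thymidine kinase Tk1 had the largest difference of the list, at 883 with LPS against 3667 with vehicle. The helicase subunits Mcm5, Mcm6 and Mcm3 followed the same direction, 3.71-fold, 3.30-fold and 2.65-fold lower. Rrm1, a ribonucleotide reductase subunit, stood at 11612 with LPS against 18563 with vehicle, and its partner Rrm2 at 6333 with LPS against 11022 with vehicle.

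Factors that make and process histone mRNA differed less. Of 22 such genes, all above the floor, 12 had lower values with LPS, 2 had higher and 8 identical values. Among all genes above the floor, these shares were 31.7%, 22.4% and 45.9%. None of the 22 differed by 2-fold, and their median was -0.04. Ccne2, a cyclin E that drives entry into S phase, was 1.98-fold lower, at 539 with LPS against 1067 with vehicle, and Ccne1 was 1.37-fold lower. Slbp, whose protein binds the histone mRNA stem-loop, was 1.45-fold lower, at 977 with LPS against 1418 with vehicle. Lsm11, a U7 snRNP protein needed for cutting the histone mRNA end, was 1.41-fold lower, at 232 with LPS against 327 with vehicle. Cstf2, a 3' end cleavage factor, stood at 335 with LPS against 469 with vehicle, and the kinase gene Cdk2 was 1.30-fold lower. Npat, the coactivator of histone gene transcription, had identical values of 1414. Of the terminal uridylyl transferases, which tag histone mRNA for decay, Tut7 was 1.19-fold higher, at 3938 with LPS against 3322 with vehicle, and Tut4 had identical values.

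Histone chaperones escort histones to DNA. Of 23 chaperone and exchange genes, 15 had lower and 8 identical values, none was higher, and again none differed by 2-fold. Their median was -0.07, and lower values were found for 31.7% of all genes above the floor. Chaf1b, a subunit of chromatin assembly factor 1, was 1.81-fold lower, at 178 with LPS against 321 with vehicle, and its partner Chaf1a was 1.38-fold lower. Asf1b, which hands H3 and H4 to that complex, was 1.77-fold lower, at 335 with LPS against 593 with vehicle, while its paralogue Asf1a had identical values of 2276. The H3.3 chaperone genes Hira, Daxx and Atrx all had identical values, at 411, 389 and 8467. Hjurp, the chaperone of the centromeric H3 variant, was 1.64-fold lower, at 713 with LPS against 1171 with vehicle. Tonsl, which reads new H4 behind the replication fork, was 1.38-fold lower and Anp32e, which removes H2A.Z, 1.34-fold lower. The general chaperone gene Nap1l1 was 1.16-fold lower.

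**Figure D4:**
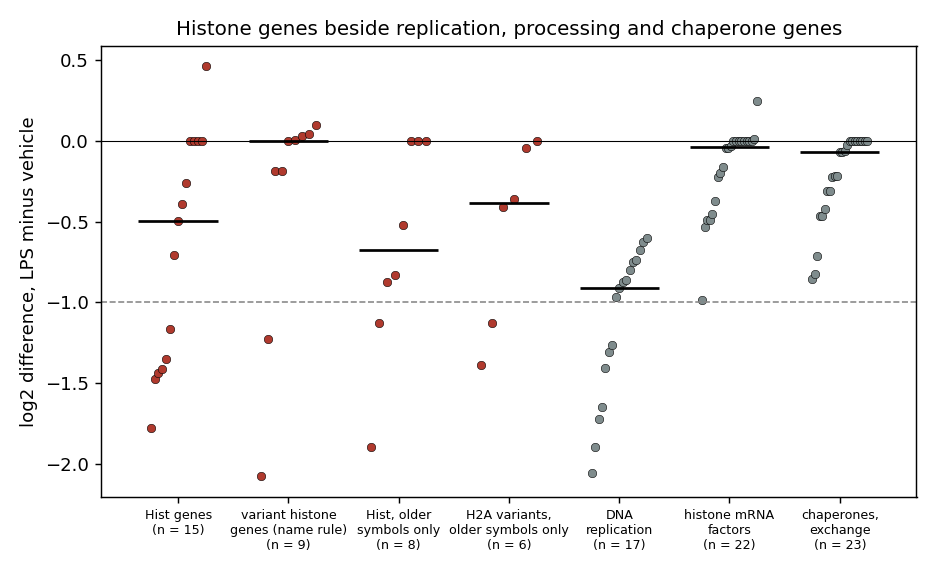
Log2 difference (LPS minus vehicle) of each gene above the floor in 7 groups, with a line at each median: the Hist and variant genes of the name rule, the histone genes found by older symbols, DNA replication genes, histone mRNA factors, and chaperone and exchange factors. DNA replication genes all lie under 0, with a median of -0.91, and the factor and chaperone genes lie mostly between 0 and the dashed 2-fold line.

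Genes listed here as markers of other cells also differed between these arrays. Smooth muscle markers were lower for 5 of 6 genes, with 3 at least 2-fold lower and a summed intensity of 193285 with LPS against 448190 with vehicle. Without Acta2, at 110838 with LPS against 311396 with vehicle, they summed to 82448 with LPS against 136794 with vehicle. Des had identical values of 62652, and Myh11 was low, at 234 with LPS against 349 with vehicle. How far this list marks smooth muscle cells in these cultures was not tested. Among all genes above the floor, 2.63% were at least 2-fold lower and 3.69% at least 2-fold higher. Fibroblast markers had 5 of 8 genes lower, 3 of them (Col3a1, Thy1 and Tcf21) at least 2-fold, and 3 higher (Dcn, Lum and Pdgfra), all at least 2-fold. They summed to 484840 with LPS against 372143 with vehicle, but without Dcn, at 177435 with LPS against 13840 with vehicle, to 307405 with LPS against 358303 with vehicle. Macrophage markers summed to 31912 with LPS against 24812 with vehicle, and without Adgre1, at 8803 with LPS against 64.4 with vehicle, to 23109 with LPS against 24748 with vehicle. Csf1r and C1qb, also of macrophages, were 3.39-fold and 4.07-fold lower. Endothelial markers summed to 2510 with LPS against 1361 with vehicle, and without Kdr, at 1975 with LPS against 715 with vehicle, to 536 with LPS against 646 with vehicle. Pecam1, Cdh5, Tie1 and Vwf were close to the floor, between 49.3 and 88.3 on both arrays. Of 7 macrophage markers above the floor, 4 were lower and 3 higher, and of 6 endothelial markers 2 were lower, 1 higher and 3 identical. Cd163 was the macrophage marker under the floor on both arrays. No marker was at 0. Their part in the histone differences was not tested.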

How the data were processed

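RNA of 2 arrays was compared, 1 for LPS and 1 for vehicle, each at 24 h. Per the submitters' processing notes, the authors processed the arrays with RMA in Affymetrix Expression Console 1.4.1. What was deposited are linear intensities for 68842 transcript clusters, and the sources used here do not describe scaling after RMA. Log2 was taken without a pseudocount, and the arrays were not normalized again. Clusters with several symbols were left out, 8 of which named a histone gene of the rule. Of a gene's several clusters (5 histone genes), that with the highest mean log2 was used. Of the 29 histone genes, 26 matched RefSeq (assembly GRCr8) by Entrez ID. The members, lists, 2-fold size and floor were chosen with earlier results of these data known. Values on both arrays are given for members at least 2-fold different, the 10 of highest level and every variant above the floor. The highest of each family is also given. In other lists, values or folds are given for up to 6 genes of largest difference and 2 of highest level. Npat, Asf1a, Hira, Daxx and Atrx, all with identical values, were named outside this choice. Added histone genes were chosen after their values were seen. Counting and the loess (statsmodels 0.14.6, span 0.3, 0 robust iterations) were tested on simulated data. With 1 array per group no test was run, and the number of arrays limits the precision.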

Additional observations from a re-analysis of the deposited data

How the results depend on the processing

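No paired analysis was possible because each group has 1 array, which also leaves no array to omit. Medians were taken to have moved when they changed by over 0.1 log2, and counts when they changed by over 1.5 times. No result reversed. The count of Hist genes at least 2-fold lower, 6 of 15, lay between 5 and 8 in every setting except that of older symbols, where it was 10 of 26, or 9 of 24 without testis forms, and none was 2-fold higher in any setting. The count for variants was 2 in every setting except with H1f1, H1f4 and H1f5 moved to the Hist genes, where it was 0 of 6. By older symbols the same 3 genes were moved, and the 2 of 12 were then Macroh2a2 and H2ax in place of H1f4 and H1f5.

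The Hist median of -0.50, and its difference from the variants, -0.50, depended most on genes of low level. They were -1.38 and -1.38 with the floor at 236, -1.16 and -1.07 with identical values left out, and 0 and 0 with values under 236 raised to it, where 7 of the 15 genes are equal on both arrays by construction or as deposited. Means in place of medians were -0.67 for Hist genes and -0.39 for variants, a difference of -0.28. With the 3 H1f genes moved they were -0.60 and -0.62, with Hist1h4b from its cluster with an Entrez ID -0.39 and -0.39, and the Hist median by older symbols was -0.61, also without the testis forms H2ac1, H2bc1 and H1f6. In the name rule's Hist genes no current symbol is that of a testis form, so leaving these out there changes nothing.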
